A study of Homo sapiens with 6 samples.

Results

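The transcripts of 10 genes of the DNA damage and G2 checkpoint were followed in UWB1.289 cells after Olaparib, out of 63677 identifiers in the deposited count table. The genes were taken by symbol and matched to their Ensembl identifiers, by a rule that names the genes and sets no threshold on their values: the sensor kinases ATM and ATR with the ATR partner ATRIP, the effector kinases CHEK1 and CHEK2, the CDK1-inhibiting kinases WEE1 and PKMYT1, and the phosphatases CDC25A, CDC25B and CDC25C. All 10 passed the filter on low counts. UWB1.289 was derived from a human ovarian carcinoma and is deficient in BRCA1, as the DMSO controls therefore are too, and all 6 samples carry the genotype label WT. RNA was measured in 3 samples kept for 24 h in 4 µM Olaparib, an inhibitor of the DNA repair enzyme PARP1, and in 3 samples kept for 24 h in the vehicle DMSO. The design text of the series gives 10 µM, whereas every treated sample is labelled 4 µM. Dishes of 1 cell line were compared, so the p values speak of the spread between cultures of this line only.

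When DNA is broken or a replication fork stalls, ATM (at breaks) and ATR with ATRIP (at single-stranded DNA) phosphorylate CHEK2 and CHEK1. These effector kinases restrain the CDC25 phosphatases. WEE1 and PKMYT1 place inhibitory phosphates on CDK1, the kinase that drives mitosis, and the CDC25 phosphatases take them off, so entry into mitosis rests on the balance of the 2 kinases against the 3 phosphatases. The switch is operated mainly through phosphorylation and protein turnover, and transcript levels report only the supply of each component.

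Total counts were 35360458 to 39640775 per sample, and the least abundant of the 10 genes had 562 to 669 counts. PAX8, KRT7, KRT8, KRT18, EPCAM and MUC16, the markers of Mullerian epithelium and ovarian carcinoma on the list checked, had at least 1505 counts in every sample, while WT1 had at most 2. Of 9 markers of leukocytes, endothelium and fibroblasts, 4 (CD3E, PECAM1, COL3A1 and DCN) had at most 3 counts in any sample. CDH5 had 1457 to 1772, COL1A1 237 to 328, PTPRC 53 to 75, VWF 38 to 69 and CD68 4 to 14 counts. Between the groups, VWF was called higher after Olaparib, with 63.8, 69.8 and 68.6 normalized counts against 39.7, 42.2 and 43.6 (edgeR adjusted p = 0.0106), as was PAX8 (log2 fold change 0.10, edgeR adjusted p = 0.040), and their part in the differences of the checkpoint genes was not tested. In chi-square tests between replicates, DMSO replicate 1 stood further from the other DMSO samples (chi-square over degrees of freedom of 4.02 and 4.11) than these did from each other (1.81), and Olaparib replicate 1 from the other Olaparib samples (3.80 and 3.35) than these did (2.28).

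Of the 10 transcripts, 1 passed an adjusted p of 0.05: CDC25B, which rose by 12.8% after Olaparib (95% interval 7.70% to 18.2%). The test was the quasi-likelihood test of edgeR, and p values were adjusted by the Benjamini-Hochberg method over all 21729 genes tested, of which 3.36% were called, 2.15% higher and 1.21% lower. Among the 8329 genes with at least the mean count of the least abundant member, 4.00% were called higher and 1.82% lower. No member was called lower. At an unadjusted p under 0.05 there were 2 higher (CDC25B and PKMYT1) and 1 lower (ATM), against 14.8% of all genes tested (7.83% higher and 6.97% lower) and, among the genes with counts as high, 13.2% higher and 8.67% lower. DESeq2 and limma voom also gave 1 member higher and 0 lower. The 9 transcripts other than ATM had positive log2 fold changes, as did 10564 of the 21729 genes tested. Of these 9, only PKMYT1 and CDC25B had 95% intervals that left out 0. The median over the 10 was 0.060, against -0.0042 over all genes tested. Signs and medians were not computed for the genes with counts as high. No difference passed a fold of 1.2 in either direction. The Olaparib and DMSO samples did not overlap for ATM, ATRIP and CDC25B, which is 3 of 10 members, against 19.3% of all genes tested and 25.8% of the genes with counts as high.

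**Figure D1:**
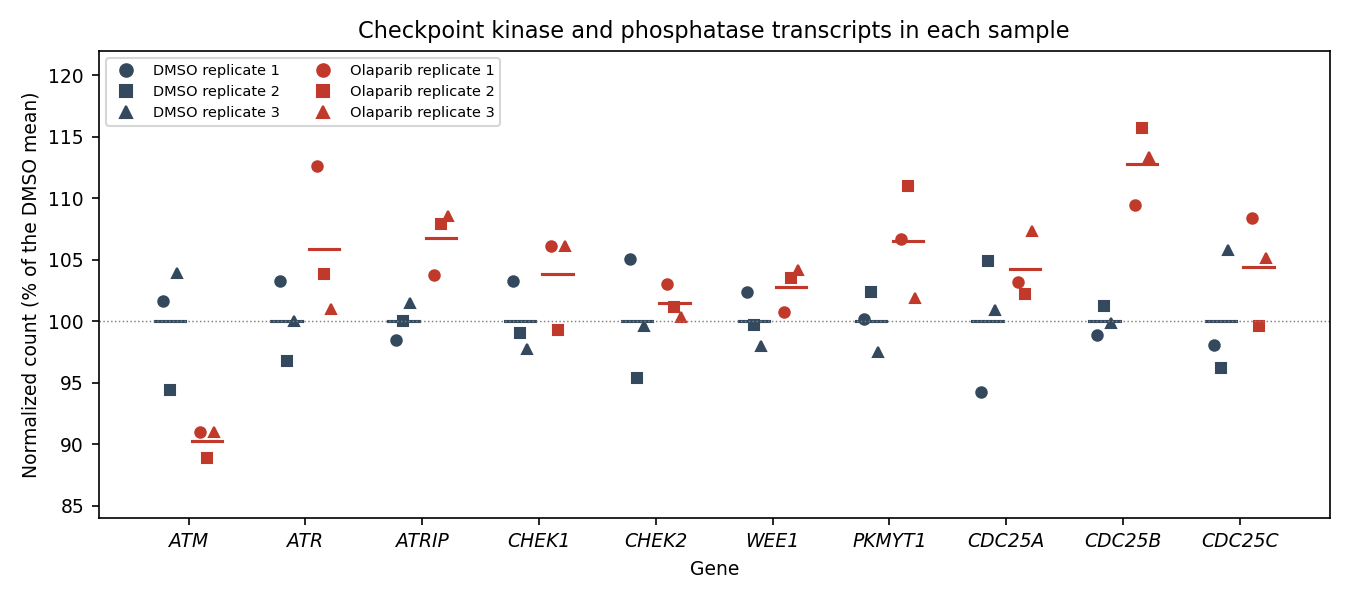
Normalized counts of each gene in the 6 samples, as a percentage of that gene's DMSO mean (vertical axis, which starts at 84%), with the mean of each group as a bar. The 3 Olaparib samples (red) lay above the 3 DMSO samples (blue) for CDC25B and ATRIP and below them for ATM.

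ATM (ENSG00000149311, chromosome 11, 108223044 to 108369102, plus strand, on GRCh38) is the kinase activated at double-strand breaks. It had 1226, 1197 and 1226 normalized counts in Olaparib replicates 1 to 3, and 1370, 1272 and 1400 in the DMSO replicates. All 3 Olaparib samples were thus below the lowest DMSO sample, DMSO replicate 2. The group means were 1216 ± 16.6 (SD, n = 3) and 1347 ± 67.1 (SD, n = 3), a log2 fold change of -0.15 (standard error 0.046, 95% interval -0.24 to -0.055). The edgeR adjusted p was 0.0680, so the difference missed the threshold. Without DMSO replicate 2 the log2 fold change was -0.19 with an adjusted p of 0.0318, and over the 13 alternatives the adjusted p ran from 0.0241 to 0.268 and was under 0.05 in 4. ATM shares 0.316% of its exonic bases with C11orf65 on the opposite strand, which had 26 to 33 counts.

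ATR and ATRIP form the complex that binds replication protein A on single-stranded DNA. ATR (ENSG00000175054, chromosome 3, 142449007 to 142578733, minus strand) had 2510, 2314 and 2251 normalized counts in the Olaparib replicates against 2301, 2157 and 2228 in DMSO. The ranges overlapped, with Olaparib replicate 1 highest. Its log2 fold change was 0.082 (95% interval -0.0055 to 0.17, edgeR adjusted p = 0.381), and without Olaparib replicate 1 it was 0.037. ATR shares 7.52% of its exonic bases with the pseudogene EIF2AK1P1 on the opposite strand, which had 0 to 4 counts. It shares 1.82% with a long noncoding RNA gene on the same strand, which had 11 to 18 counts. ATRIP (ENSG00000164053, chromosome 3, 48446710 to 48467645, plus strand) had 624, 648 and 652 normalized counts in Olaparib replicates 1 to 3 against 592, 601 and 610 in DMSO. The samples of the 2 groups did not overlap, yet the log2 fold change of 0.094 (95% interval -0.0086 to 0.20) had an adjusted p of 0.395 in the same edgeR test. At 621 counts on average, counting error alone gives a coefficient of variation of 4.01%, above the 2.42% and 1.48% seen between the Olaparib and the DMSO replicates. ATRIP shares 26.7% of its exonic bases with TREX1 on the same strand, a gene with 223 to 267 counts, so some of its reads could not be assigned with certainty. The level of ATR over that of ATRIP, each scaled by the canonical transcript length, was 2.07 ± 0.17 after Olaparib and 2.08 ± 0.088 after DMSO (SD, n = 3 each). Which of them is higher depends on the length used. Scaled by the union of all annotated exons, the DMSO mean was lower for ATR (2.19) than for ATRIP (2.96). The ratio of ATR to ATM was 2.91 to 3.24 after Olaparib and 2.52 to 2.68 after DMSO, without overlap. ATM alone did not overlap either, and the ratio of ATR to ATM was not tested. Its size also depends on the length used.

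CHEK1 and CHEK2, the kinases that carry the signal of ATR and ATM, gave no call. CHEK1 (ENSG00000149554, chromosome 11, 125625163 to 125676255, plus strand) had 5143, 4814 and 5146 normalized counts in Olaparib replicates 1 to 3 against 5006, 4801 and 4738 in DMSO. Olaparib replicate 2 fell among the DMSO samples. The log2 fold change was 0.055 (standard error 0.035, 95% interval -0.016 to 0.13, edgeR adjusted p = 0.505), and without single samples it ran from 0.036 (DMSO replicate 3) to 0.086 (Olaparib replicate 2). CHEK1 shares 0.946% of its exonic bases with STT3A on the same strand, which had 15569 to 18752 counts. CHEK2 (ENSG00000183765, chromosome 22, 28687743 to 28742422, minus strand) had 1236, 1214 and 1204 normalized counts after Olaparib, all inside the DMSO range of 1144 to 1260. Its log2 fold change was 0.022 (95% interval -0.071 to 0.12, edgeR adjusted p = 0.884), which turned to -0.011 without DMSO replicate 2 and was 0.060 without DMSO replicate 1. The interval reaches from a fall of 4.78% to a rise of 8.30%. CHEK2 has pseudogene copies in the genome that can share reads with it. The 6 of them in the table (CHEK2P2 to CHEK2P7) held 1 count in all. CHEK2 shares 6.52% of its exonic bases with HSCB on the opposite strand, which had 269 to 301 counts. The ratio of the CHEK1 to the CHEK2 level, over canonical transcripts, was 1.85 ± 0.069 after Olaparib and 1.81 ± 0.058 after DMSO (SD, n = 3 each). Its size depends on the length used. Scaled by the union of exons, the DMSO means were 23.1 for CHEK1 and 7.13 for CHEK2, against 31.4 and 17.4 over canonical transcripts.

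WEE1 and PKMYT1 phosphorylate CDK1 in the nucleus and at cytoplasmic membranes. WEE1 (ENSG00000166483, chromosome 11, 9573670 to 9593457, plus strand) had 1631, 1675 and 1685 normalized counts in Olaparib replicates 1 to 3 against 1656, 1613 and 1585 in DMSO. These ranges overlapped, and the log2 fold change was 0.040 (standard error 0.042, 95% interval -0.045 to 0.13, edgeR adjusted p = 0.729). Without single samples it ran from 0.024 (DMSO replicate 3) to 0.059 (DMSO replicate 1). Its processed copies WEE1P1 and WEE1P2 held 3 and 0 counts in total. PKMYT1 (ENSG00000127564, chromosome 16, 2968024 to 2980479, minus strand) had 1748, 1820 and 1670 normalized counts in Olaparib replicates 1 to 3 against 1642, 1678 and 1598 in DMSO. Only Olaparib replicate 3 lay inside the DMSO range. The log2 fold change of 0.091 (95% interval 0.0034 to 0.18) had an unadjusted p of 0.0423 and an adjusted p of 0.307 in the same edgeR test. Other genes on the opposite strand, chiefly PAQR4 with 915 to 1017 counts, overlap 31.9% of the exonic bases of PKMYT1. The strand setting of the counting is not given in the sources used here, so the PKMYT1 count is uncertain to that extent.

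The CDC25 phosphatases differ in when they act: CDC25A is active from the start of S phase on, whereas CDC25B and CDC25C act mainly at the entry into mitosis. CDC25B (ENSG00000101224, chromosome 20, 3786772 to 3806121, plus strand) had 5208, 5507 and 5395 normalized counts in Olaparib replicates 1 to 3 against 4707, 4818 and 4754 in DMSO. The lowest Olaparib sample, replicate 1, was above the highest DMSO sample, replicate 2. The means were 5370 ± 151 and 4760 ± 56.0 (SD, n = 3 each), giving 0.17 on the log2 scale (standard error 0.033, 95% interval 0.11 to 0.24). The edgeR adjusted p was 0.00107. The rise was called under each of the 13 alternatives that gave a fitted value, with log2 fold changes of 0.16 to 0.20 and adjusted p values of 4.2e-05 to 0.0138. Of the 2 libraries furthest from their groups, leaving out DMSO replicate 1 gave a log2 fold change of 0.17 (edgeR adjusted p = 0.00464) and leaving out Olaparib replicate 1 gave 0.20 (edgeR adjusted p = 5.6e-04). No exonic base of CDC25B overlaps another gene of the table.

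CDC25A (ENSG00000164045, chromosome 3, 48157146 to 48188417, minus strand) had 1605, 1591 and 1670 normalized counts in Olaparib replicates 1 to 3 against 1466, 1633 and 1570 in DMSO. DMSO replicate 2 lay above 2 of the 3 treated samples. Its log2 fold change was 0.059 (95% interval -0.032 to 0.15, edgeR adjusted p = 0.593), and it was 0.021 without DMSO replicate 1, 0.036 without Olaparib replicate 3 and 0.095 without DMSO replicate 2. CDC25C (ENSG00000158402, chromosome 5, 138285269 to 138338355, minus strand) had 650, 597 and 630 normalized counts in Olaparib replicates 1 to 3 against 588, 577 and 634 in DMSO. These ranges overlapped too, and the log2 fold change was 0.061 (95% interval -0.048 to 0.17, edgeR adjusted p = 0.665). It was 0.035 without Olaparib replicate 1 and 0.033 without DMSO replicate 2, and 0.094 without Olaparib replicate 2 and 0.10 without DMSO replicate 3. CDC25C shares 8.80% of its exonic bases with FAM53C on the opposite strand, which had 1754 to 2043 counts. The CDC25C count is uncertain to that extent, as the PKMYT1 count is. The intervals of CDC25A and CDC25C reach into that of CDC25B, and whether the 3 genes responded differently was not tested. The length-scaled level of CDC25B over that of CDC25A was 3.98 to 4.27 after Olaparib and 3.64 to 3.96 after DMSO, and that over CDC25C was 5.38 to 6.19 and 5.03 to 5.61. The first ratio did not overlap between the groups, nor did CDC25B alone, and the second did. Neither ratio was tested, and the size of both depends on the length used. Of the summed CDC25 level, CDC25B made up 70.5% ± 1.04 after Olaparib and 68.8% ± 0.664 after DMSO (SD, n = 3 each).

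**Figure D2:**
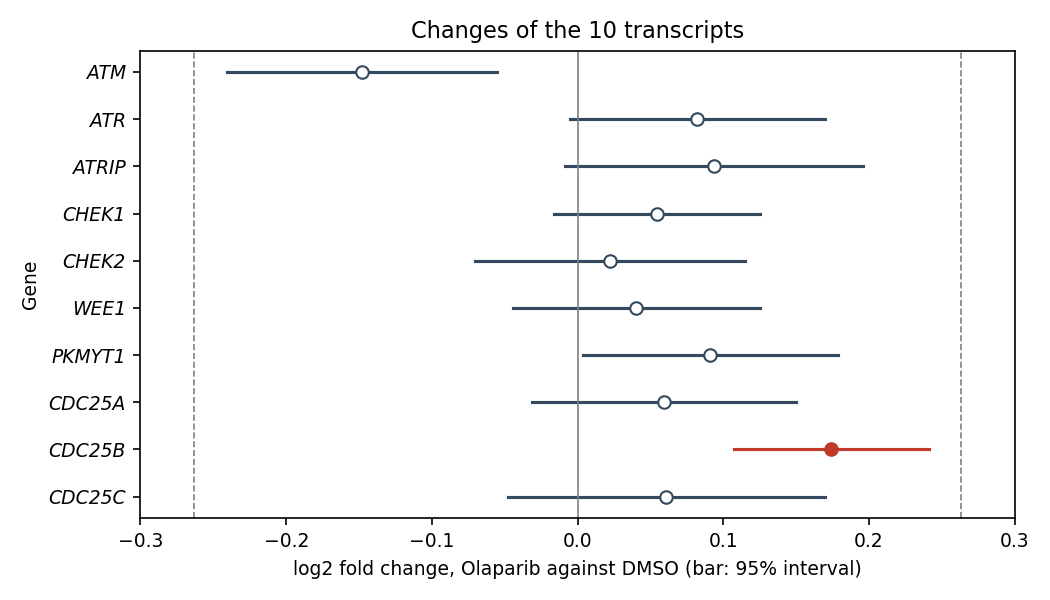
Log2 fold change of each gene, Olaparib against DMSO (horizontal axis), with its 95% interval as a bar. The filled red point marks CDC25B, the 1 gene with an adjusted p under 0.05, and the dashed lines mark a fold of 1.2 either way, which no interval crossed.

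To set the CDC25B transcript beside other genes of the same step, 50 further checkpoint genes were counted by role. Of these, 6 were called higher and 0 lower (edgeR), against 2.15% and 1.21% of all genes tested, and 9 were higher and 7 lower at an unadjusted p under 0.05, against 7.83% and 6.97%. DESeq2 and limma voom gave 6 higher and 0 lower as well. The list of CDK1 activation and mitotic entry held 5 of the 6: CDK1, CCNB1, CCNB2, PLK1 and AURKA were called higher among 10 genes, where 2.15% of all genes were. Among genes with at least the mean count of the least abundant member, 4.00% were called higher. The median log2 fold change of the 10 in this list was 0.090. In bulk RNA, more cells in G2 and mitosis and more RNA per cell cannot be told apart.

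CDK1, the mitotic kinase itself, had 12728, 11882 and 12113 normalized counts in Olaparib replicates 1 to 3 against 11097, 10428 and 10829 in DMSO. The log2 fold change of CDK1 was 0.18 (standard error 0.030, 95% interval 0.12 to 0.24, edgeR adjusted p = 2.0e-04). CCNB1 and CCNB2, the B-type cyclins that activate CDK1, had log2 fold changes of 0.14 (edgeR adjusted p = 0.00297) and 0.15 (0.0113). PLK1, a kinase that activates CDC25C and marks WEE1 for degradation, had 0.17 (adjusted p = 4.7e-04), and AURKA, which activates PLK1, had 0.10 (adjusted p = 0.0391), both in the same edgeR test. For each of these 5 genes, all Olaparib samples were above all DMSO samples, which was so for 10.0% of all genes tested and follows nearly of itself for called genes. The call of CCNB2 was lost without Olaparib replicate 3 (adjusted p = 0.0633) or DMSO replicate 2 (0.0574), within a range of 0.00278 to 0.0633 over 13 alternatives. AURKA was called in 7 of 13 alternatives, with adjusted p values up to 0.189 without Olaparib replicate 3. CCNA2, the A-type cyclin, differed by 0.077 on the log2 scale (edgeR adjusted p = 0.275), and MASTL, ENSA, ARPP19 and BORA, which keep opposing phosphatases in check or activate PLK1, had -0.038 to 0.031.

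**Figure D3:**
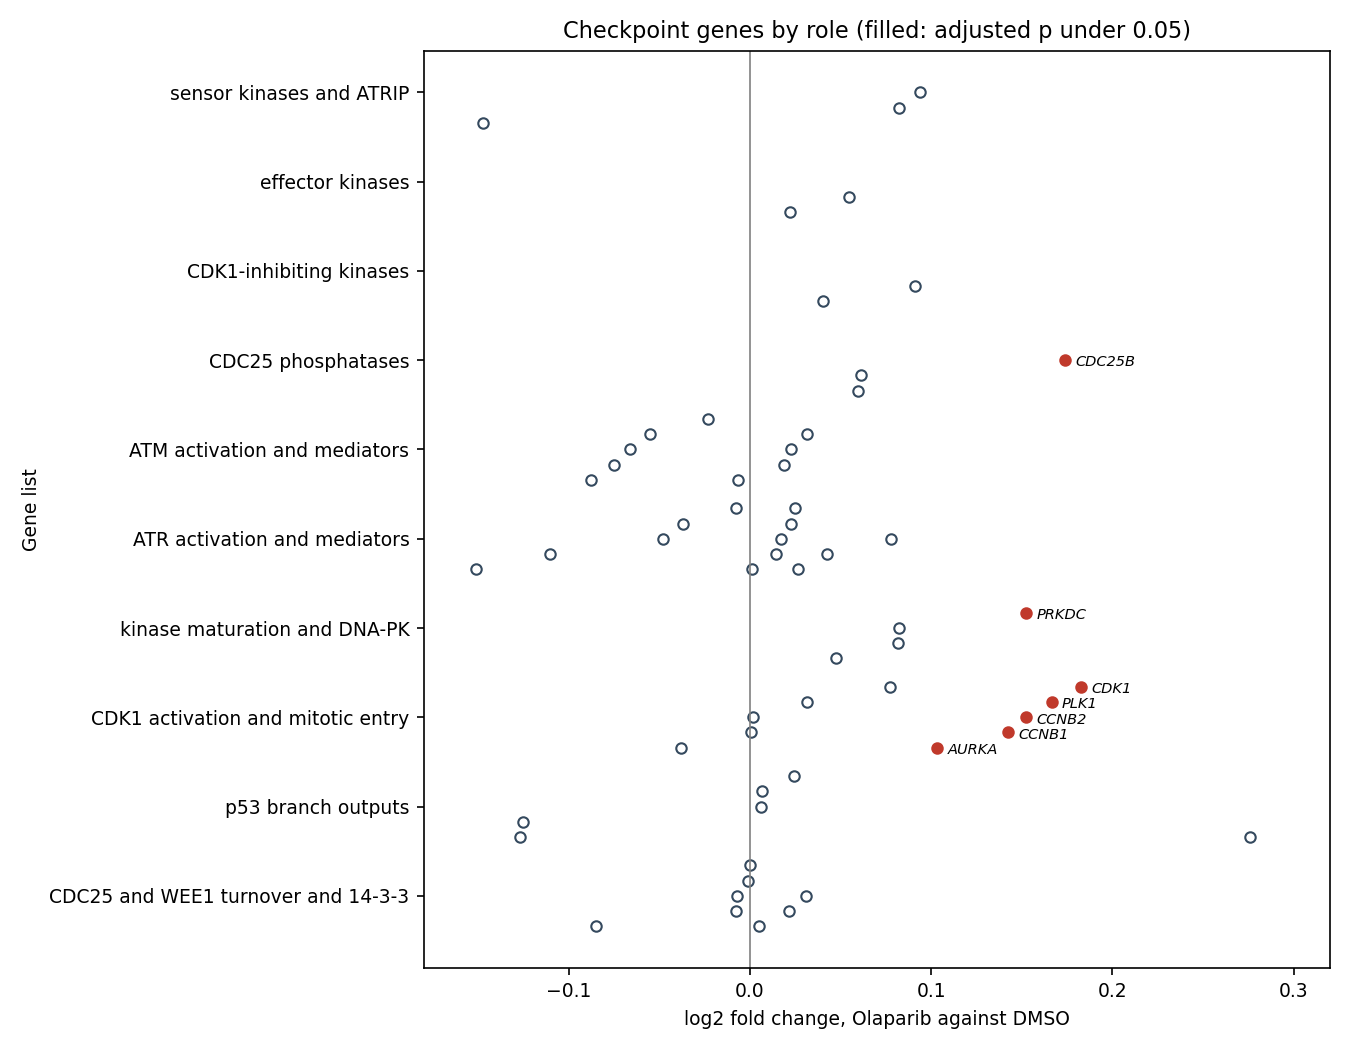
Log2 fold changes, Olaparib against DMSO (horizontal axis), of the 10 checkpoint genes (upper 4 lists) and of 50 further genes by role (lower 6 lists). Filled red points passed an adjusted p of 0.05, and 5 of the 7 stand in the list of CDK1 activation and mitotic entry.

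Promoters of genes expressed in G2 and mitosis often hold a CHR element (TTTGAA, or less often TTCGAA) shortly downstream of CCAAT boxes, and those of S phase genes hold E2F sites. Since CDC25B, CDK1 and the B-type cyclins were called together, these letters, and GGCGGGA as an E2F core, were searched on both strands of RefSeq start windows (250 bases before to 50 after the start, GRCh38.p14). A window was found for 8 of the 10 genes (not WEE1 and PKMYT1) and for 4 of the 6 further genes called (not PRKDC and AURKA). Some genes had several windows: CDC25B and CDC25C 4 each, CHEK1 3, and ATM, ATRIP and CDK1 2 each. Only the window nearest to the start of the canonical transcript was described, and the others were not. Of 35116 windows in the table, 15.2% held TTTGAA, 1.45% TTCGAA, 34.6% CCAAT and 15.4% GGCGGGA, and 5.90% held both TTTGAA and CCAAT. The 130 bases before the start of CDC25B and of CDC25A, and of CCNB1 and CCNB2, are shown because CDC25B, CCNB1 and CCNB2 rose and CDC25A was not called. These 4 were thus picked by their results, and whether CDC25A and CDC25B responded differently was not tested. The motifs, in the written or the reverse complementary direction, are in capitals.
CDC25B: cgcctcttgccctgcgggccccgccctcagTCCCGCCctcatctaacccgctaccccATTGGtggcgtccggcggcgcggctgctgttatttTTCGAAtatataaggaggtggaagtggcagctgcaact
CDC25A: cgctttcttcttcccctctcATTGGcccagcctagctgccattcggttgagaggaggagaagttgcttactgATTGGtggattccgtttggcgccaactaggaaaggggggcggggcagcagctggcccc
CCNB1: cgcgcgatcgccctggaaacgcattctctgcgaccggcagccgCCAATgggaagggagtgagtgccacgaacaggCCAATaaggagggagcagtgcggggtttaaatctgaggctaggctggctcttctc
CCNB2: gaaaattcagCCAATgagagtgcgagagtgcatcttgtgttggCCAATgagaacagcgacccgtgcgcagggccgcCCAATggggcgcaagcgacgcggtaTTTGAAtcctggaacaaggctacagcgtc
These are chr20:3796180-3796309 (plus strand), chr3:48188418-48188547 (minus strand), chr5:69167020-69167149 (plus strand) and chr15:59105016-59105145 (plus strand). Positions count the first base of a match from the start, with bases before it negative. CDC25B held TTCGAA at -38, a CCAAT box at -73 and the E2F core at -100. CCNB2 held TTTGAA at -29 and CCAAT boxes at -54, -87, -120 and -244, of which the last lies outside the stretch shown. CCNB1 held CCAAT boxes at -55 and -87 and CDC25A at -58 and -110, and neither held TTTGAA or TTCGAA. Other forms of the CHR element or of E2F sites were not searched. In PLK1, TTTGAA stood at -29 with CCAAT at -73, both in the written direction. CDC25C, which was not called, held TTTGAA at -30 and CCAAT in the reverse complementary direction at -85. CDK1 held TTTGAA at -69, -13 and 9 and CCAAT at -78 and -46. ATM, whose log2 fold change was negative, held TTTGAA at -20 and CCAAT at -188. The E2F core also stood in CHEK2 at -179 and in ATRIP at -119, the latter with a CCAAT box at -26. CHEK1 and CHEK2 held CCAAT boxes and no CHR form, and the window of CHEK1 lay 1061 bases from its canonical start. ATR held none of the 4 motifs. Matches of short letters are a description of the windows, not sites shown to be bound.

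**Figure D4:**
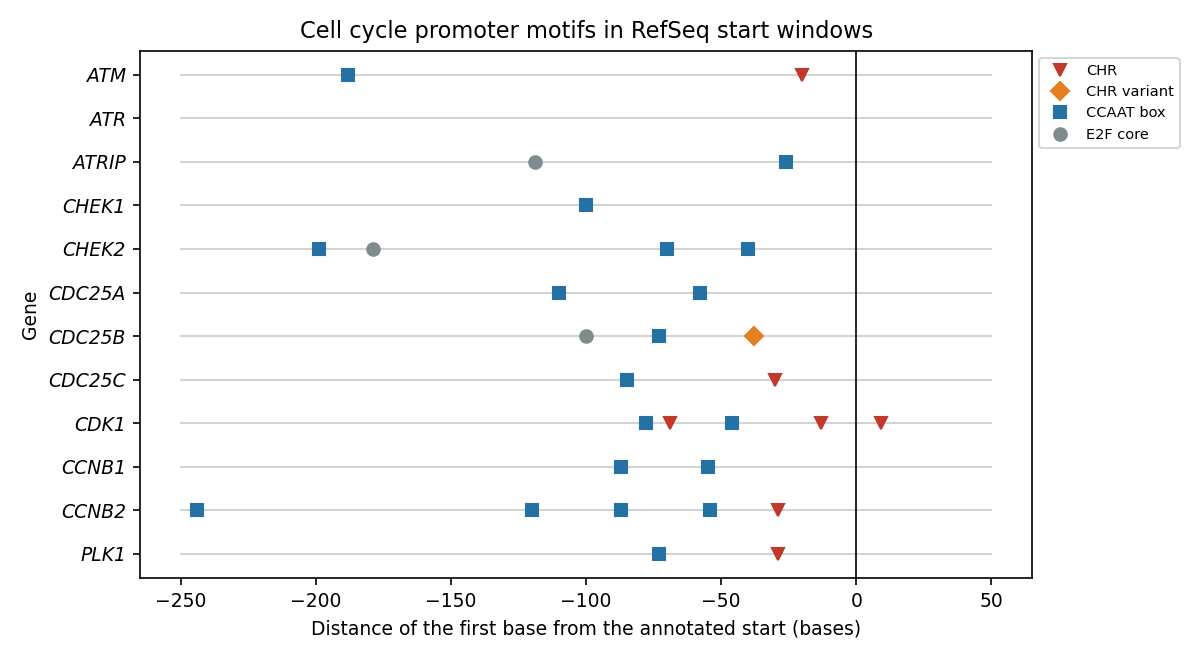
Position of each motif by distance of its first base from the annotated start, in bases (horizontal axis), for 8 checkpoint genes and the 4 called mitotic entry genes with a window. A CHR form together with a CCAAT box stood in the windows of ATM, CDC25B, CDC25C, CDK1, CCNB2 and PLK1.

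Among the lists upstream of CDK1, counts of calls near 0 are what the background of 3.36% gives in lists this short. None of the 9 genes of ATM activation (the MRE11 complex and the mediators at chromatin) was called, with a median log2 fold change of -0.023. NBN, the MRE11 partner that recruits ATM, had the largest difference at -0.088 (edgeR adjusted p = 0.248). None of the 13 genes of ATR activation was called either (median 0.015). CLSPN, which presents CHEK1 to ATR, had 1641, 1576 and 1491 normalized counts in Olaparib replicates 1 to 3 against 2003, 1660 and 1571 in DMSO. The highest of these was DMSO replicate 1. Its log2 fold change was -0.15 (edgeR adjusted p = 0.164). It was called lower without a filter on low counts (edgeR adjusted p = 0.0332) and without DMSO replicate 3 (0.0380). Among the factors that mature the large kinases and the related DNA-dependent kinase, PRKDC was called, with a log2 fold change of 0.15 (edgeR adjusted p = 0.00319, and 0.0678 without DMSO replicate 3, within 5.5e-07 to 0.0678 over 13 alternatives). TELO2, TTI1 and TTI2 had 0.047 to 0.082 and were not called.

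None of the 6 outputs of the p53 branch was called. CDKN1A, the CDK inhibitor, was low, with 142, 135 and 153 normalized counts in Olaparib replicates 1 to 3 against 123, 105 and 127 in DMSO. The groups did not overlap, and the log2 fold change of 0.28 (standard error 0.11, 95% interval 0.048 to 0.50) had an adjusted p of 0.208 in the same edgeR test. MDM2 and MDM4, the inhibitors of p53, both had -0.13 (adjusted p = 0.144 and 0.209 in the same edgeR test), while GADD45A, SFN and PPM1D had 0.0059 to 0.024. The 8 genes for 14-3-3 proteins and for the ubiquitin ligase subunits that bind CDC25 and WEE1 gave 0 calls, and 0 higher and 1 lower at an unadjusted p under 0.05 (edgeR), which is near the background of 7.83% and 6.97%. The latter was YWHAZ, at -0.085 (edgeR adjusted p = 0.145).

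Levels per length were compared between the genes as RPKM, the reads per kilobase of canonical transcript scaled by the TMM library size. CDC25B was highest, with 44.6, 47.2 and 46.2 RPKM in the Olaparib replicates and 40.3, 41.3 and 40.7 in DMSO. In DMSO its mean of 40.8 ± 0.479 (SD, n = 3) was followed by those of CHEK1 (31.4 ± 0.906), PKMYT1 (21.2 ± 0.522), CHEK2 (17.4 ± 0.840), WEE1 (12.0 ± 0.267), CDC25A (10.8 ± 0.585), CDC25C (7.65 ± 0.390), ATR (7.30 ± 0.236), ATRIP (3.51 ± 0.0518) and ATM (2.79 ± 0.139). The order was the same after Olaparib. CDC25C and ATR were the neighbours whose samples overlapped, in both groups, and every other gene kept its rank in all 6 samples. The effector kinases were thus present at higher transcript levels than their activating kinases. The DMSO level of CDC25B stood at the 90.7th percentile of the tested genes with a canonical transcript and that of ATM at the 52.7th. The order depended on the length used. The union of all annotated exons is 39184 bases for ATM against 12915 for its canonical transcript. With the union as length, CDC25B and CHEK1 remained highest in DMSO and ATM lowest, whereas all other genes changed rank. PKMYT1 moved from rank 3 to 4, CHEK2 from 4 to 5, WEE1 from 5 to 7, CDC25A from 6 to 3 and CDC25C from 7 to 6. ATR moved from 8 to 9 and ATRIP from 9 to 8. The size of the ratios and CDC25 shares given above, over canonical transcripts, likewise depends on the length. For ATR over ATRIP, so does which of them is higher.

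**Figure D5:**
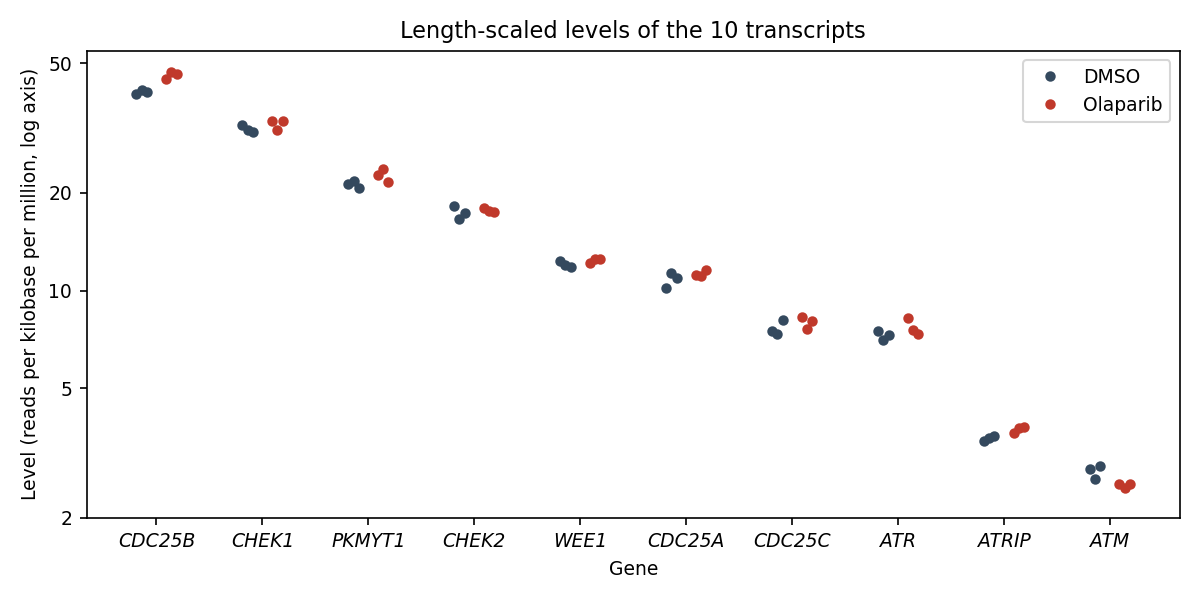
Level of each gene in RPKM over its canonical transcript (vertical log axis), 1 point per sample, DMSO in blue and Olaparib in red, in the order of the DMSO means. The genes span from about 2.79 for ATM to 40.8 for CDC25B in DMSO, and only CDC25C and ATR overlapped as neighbours.

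Replicates of one group differed little. The coefficient of variation of the 10 genes lay between 1.35% (CHEK2) and 5.74% (ATR) after Olaparib and between 1.18% (CDC25B) and 5.41% (CDC25A) after DMSO. Both minima lie below what counting error alone gives, 2.88% for CHEK2 and 1.41% for CDC25B. The same held for ATM, ATRIP and WEE1 after Olaparib and for ATRIP and WEE1 after DMSO. Such low values therefore understate the spread. No single treated library was high throughout: Olaparib replicate 1 was the highest of its group for ATM, ATR, CHEK2 and CDC25C and the lowest for ATRIP, WEE1 and CDC25B. Over the 6 samples, the log2 CPM of CDC25B was most like that of CXCL16 (Pearson's r = 0.994), KLRG2 (0.994), BAP1 (0.993), IGFBP4 (0.992) and STMN3 (0.992), out of 8880 other genes whose mean count reached 500. With 6 points that share libraries and fall into 2 groups, these coefficients are a description of likeness.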

How the data were processed

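RNA of UWB1.289 cells was sequenced from 3 Olaparib and 3 DMSO samples as poly(A)-enriched libraries. According to the methods of the study, the authors trimmed adapters with Trimmomatic, mapped reads to GRCh38 with STAR, marked duplicates with Picard and counted reads per gene with featureCounts. The deposited values are whole-number read counts per gene without normalization. Whether duplicates were removed and the strand setting are not given in the sources used here. Library names in the table were matched to the sample descriptions.

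Genes with more than 10 counts in total were kept (21729) and scaled by TMM, and normalized counts refer to the mean library of 37434382 counts. Olaparib was compared with DMSO by edgeR 4.0.16 (glmQLFit and glmQLFTest, two-sided, R 4.3.3), with p values adjusted over all genes tested and a call at an adjusted p under 0.05. The study's own tool, DESeq2 1.42.0, was an alternative, as were limma 3.58.1 (voom), RLE and upper-quartile scaling, no filter, filterByExpr, a fold minimum of 1.2, a replicate block and leaving out each sample. Standard errors were taken as the absolute log2 fold change over the square root of F, and intervals are 95% intervals. Gene spans, exon overlaps and transcript lengths came from GENCODE release 44 on GRCh38, which held 96.0% of the tested identifiers, and start windows from RefSeq (GRCh38.p14). The code was tested on simulated data. The intervals include the spread between replicates, whereas the counting errors quoted for ATRIP, CHEK2 and CDC25B do not.

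The 10 genes, the further lists and the motifs were chosen with earlier results of these data known. All 10 genes were named. From the further lists, each called gene was named, or else the gene of largest change whose mean count reached 100, and other genes named from them, among them CCNA2, MDM2, MDM4 and those given by range, were chosen after their values were seen. For likeness, the 5 highest coefficients with the member of smallest adjusted p were taken.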

Additional observations from a re-analysis of the deposited data

How the results depend on the processing

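CDC25B kept its direction and its call in all 13 alternatives fitted. The count of members called lower was 1 (ATM) instead of 0 with upper-quartile factors (adjusted p = 0.0498), filterByExpr (0.0463) and the replicate block (0.0241), within a range of 0.0241 to 0.268 over its alternatives, and 0 to 1 when single samples were left out. Members called higher stayed at 1 when single samples were left out. With a fold minimum of 1.2 there were 0 members and 0 further checkpoint genes called higher and 262 genes in all. The further checkpoint genes called lower were 2 without a filter (CLSPN and YWHAZ), 3 with the replicate block (CLSPN, MDM2 and YWHAZ) and 0 to 2 with single samples left out (MDM2 and YWHAZ without Olaparib replicate 1, CLSPN without DMSO replicate 3), against 0; those called higher were 4 to 6. With single samples left out, all genes called ran from 398 (without DMSO replicate 2) to 870 (without Olaparib replicate 1), against 730, and were 401 without DMSO replicate 3 and 439 without Olaparib replicate 3. Without a filter they were 888. CHEK2 ran from -0.011 (without DMSO replicate 2) to 0.060 with single samples left out. AURKA had an adjusted p of 0.0602 with upper-quartile factors.

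The replicate block raised all calls to 1322. Deviations of same-numbered samples from their group means correlated at -0.204, 0.263 and -0.319. Between differently numbered samples the coefficients ran from -0.377 (Olaparib replicate 3 with DMSO replicate 2) to 0.484 (Olaparib replicate 3 with DMSO replicate 1). Because deviations from a mean cancel within each group, these coefficients depend on each other. They cannot decide whether the numbers pair the samples. Apart from ATM among the 10 genes and CLSPN, MDM2 and YWHAZ among the further genes, the block changed no call of these genes. The cause of these changes was not tested.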
